A study of Mus musculus with 20 samples.

Results

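The R47H substitution and the knockout of Trem2 were compared directly, in the 5 libraries of macrophages with R47H knocked into Trem2 (R47H Rep1 to Rep5) and the 5 with a Trem2 knockout (KO Rep1 to Rep5), 10 of the 20 libraries of the study. The libraries were chosen by their labels. All 20 came from bone marrow of C57BL/6 mice aged 4 to 5 months, grown for 6 days in 50 ng/ml CSF-1, which drives marrow progenitors to become macrophages and supports their survival. The KO genotype is labelled as a 5 bp knockout and given as TREM2-/- in the design text; R47H is named there separately from the heterozygote R47H/+; and WT Rep1 to Rep10, the wild types, serve here as a reference level. According to the design text each genotype had 5 animals, and wild-type littermates were taken for each mutant line, so KO and R47H come from separate lines. Which wild types belong to which line is not given in the labels, and genotype and litter set cannot be told apart in the direct comparison.

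Trem2 is a surface receptor of macrophages, microglia and osteoclasts that binds lipids, lipoproteins and debris of dead cells. It has no signalling tail of its own and works through the adaptor Tyrobp (DAP12), which recruits the kinase Syk and leads to PI3K, calcium and beta-catenin signals that support survival, proliferation and lipid handling alongside CSF-1. The human R47H variant raises the risk of Alzheimer's disease and lies in the ligand-binding immunoglobulin domain. A knockout removes the receptor, whereas the substitution leaves a protein that can reach the cell surface.

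The codon for residue 47 lies on chromosome 17 from position 48348555 to 48348557 of GRCm38, in exon 2 of Trem2 on the plus strand (GENCODE M21). The reference sequence around it, positions 48348540 to 48348572, is shown because it is the site that separates R47H from wild type, with the arginine codon in capitals. The bases of the knock-in and the position of the knockout's deletion were not stated in the sources used here.
Trem2 codon 47: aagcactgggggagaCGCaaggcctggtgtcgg

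Values are FPKQ, a fragment count per kilobase on a scale set by the authors, and differences are on the log2(FPKQ + 1) scale, R47H minus KO. In the 10 libraries, 1 FPKQ in a gene of 2 kb stood for 46.97 to 58.3 fragments. Macrophage genes were abundant (Lyz2, Csf1r and Adgre1 in all libraries), and of the markers of other cells no T, NK, mast cell or basophil marker reached the minimum level; Cd3e, Cd3g, Gzmb, Mcpt4 and Alas2 were at 0 in all 10 libraries. Summed neutrophil markers ran from 89.2 to 157 FPKQ in R47H and from 104.7 to 136 in KO. R47H libraries scattered more than KO libraries (median SD over genes 0.155 against 0.112), with R47H Rep3 and Rep2 weighted lowest (0.387 and 0.419) when each library was weighted by its fit. Transcripts of Xist above 1 FPKQ were found in 4 of 5 R47H and 4 of 5 KO libraries, so sex was balanced between the mutants, but in 3 of 5 of WT Rep1 to Rep5 and 1 of 5 of WT Rep6 to Rep10.

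Between the first 5 wild types (WT Rep1 to Rep5) and the last 5 (WT Rep6 to Rep10), 702 of 10811 genes differed (6.49%, limma). Among the genes that differed between R47H and KO, the WT Rep6 to Rep10 minus WT Rep1 to Rep5 difference had the same sign in 79.8%, against 64.5% of all tested genes, with a median of 0.256 of the R47H minus KO difference. With a sex covariate that share was 80.1%. The main results below are therefore given with a second value, called here set-subtracted: (R47H minus WT Rep6 to Rep10) minus (KO minus WT Rep1 to Rep5). This pairing follows the order of the library numbers and not a stated litter. The labels do not favour it over the exchanged pairing, (R47H minus WT Rep1 to Rep5) minus (KO minus WT Rep6 to Rep10), whose values are given as exchanged where set-subtraction ended a call or moved a list.

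Trem2 itself separated the groups. R47H libraries held 673, 772, 794, 496 and 527 FPKQ in replicate order and KO libraries 24.1, 23.7, 24.8, 24.1 and 23.8, against 691 to 901 (median 811) in wild type. The KO level was 3.69% of that in R47H, and every R47H library lay far above every KO library (log2 difference 4.68 ± 0.12 SE; exact two-sided permutation p = 0.00794, the smallest that 5 against 5 libraries allow). R47H held 80.9% of the wild-type mean (-0.33, limma adjusted p = 0.0114), with Rep1, Rep4 and Rep5 below every wild type.

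In all, 3472 of 10811 tested genes (32.1%) differed between R47H and KO in limma at an adjusted p under 0.05, 1914 higher in R47H (17.7%) and 1558 lower (14.4%). Most differences were small: 710 genes (6.57%) reached 1.5-fold, 409 higher (3.78%) and 301 lower (2.78%). Which direction held more called genes depended on the scaling. With libraries scaled to equal medians 1590 were higher and 1794 lower, and with quantile normalization 1606 and 1785. With libraries scaled to equal sums 1572 were higher and 1456 lower. Set-subtracted, 1527 genes (14.1%) were called, 861 higher (7.96%) and 666 lower (6.16%), and 1333 (12.3%) with a sex covariate added; exchanged, 4348 (40.2%) were called. Set-subtracted without the covariate, 493 (4.56%) reached 1.5-fold, and 522 of the 710 (73.5%) were among those called and 705 (99.3%) had the same sign. Both values contain the R47H minus KO difference by which the 710 were picked, so this agreement is largely built in. R47H lay nearer to WT Rep6 to Rep10 than KO lay to WT Rep1 to Rep5 for 685 of the 710 genes (96.5%), against 68.9% of all tested genes, and with the wild-type sets exchanged for 688. Against all 10 wild types, 5588 genes (51.7%) differed in KO and 2225 (20.6%) in R47H; both counts use the same wild-type libraries.

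**Figure D1:**
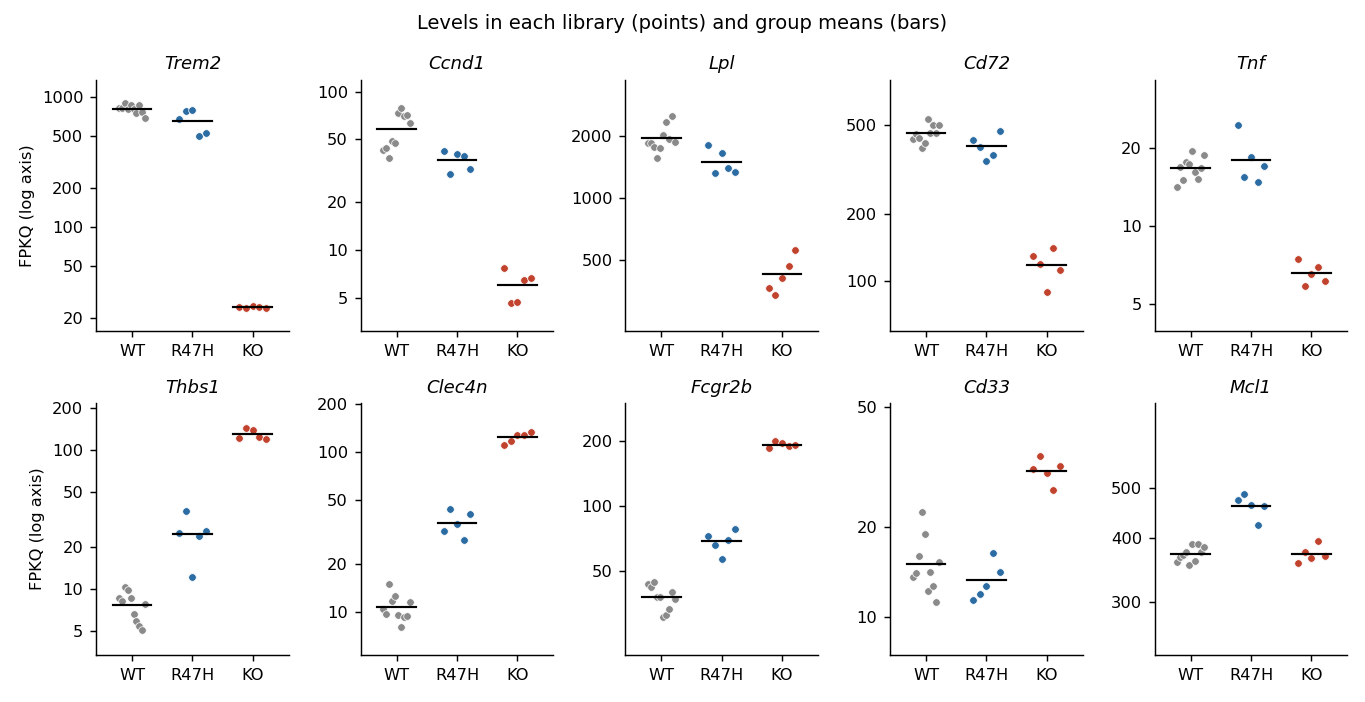
Level of 10 genes in each library on a log axis, with wild type (10 points), R47H (5) and KO (5); the horizontal bar is the group mean. R47H lies at or somewhat below the wild types for Trem2, Ccnd1, Lpl and Cd72, among them for Tnf and Cd33, between the groups for Thbs1, Clec4n and Fcgr2b, and above both for Mcl1.

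The genes highest in R47H against KO were low in KO and, in R47H, at or somewhat below the wild-type level. Ccnd1, cyclin D1, which carries growth-factor signals into the cell cycle, held 42.3, 30.1, 40.2, 39.4 and 32.4 FPKQ in R47H and 7.74, 4.59, 4.68, 6.44 and 6.64 in KO, against 38.3 to 79.4 (median 56.01) in wild type. All R47H libraries lay above all KO libraries. They lay near WT Rep1 to Rep5 (38.3 to 49.1) and below WT Rep6 to Rep10 (62.95 to 79.4) (2.44 ± 0.14, adjusted p = 6.21e-07; set-subtracted 1.76, adjusted p = 7.51e-07). Lpl, lipoprotein lipase, which frees fatty acids from lipoproteins, held 1808, 1332, 1653, 1395 and 1336 FPKQ in R47H and 367, 341, 409.9, 470.2 and 562 in KO, against 1564 to 2497 (median 1870.3) in wild type. R47H and KO did not overlap, and 2 R47H libraries lay within the wild-type range and 3 below it (1.82 ± 0.14, adjusted p = 4.02e-06; set-subtracted 1.54). Cd72, an inhibitory receptor with immunoreceptor motifs, held 427, 397, 343, 364 and 467 FPKQ in R47H and 129.8, 118, 89.3, 141 and 112 in KO, against 392 to 529 (median 455) in wild type. Its R47H libraries reached into the wild-type range and its KO libraries lay far below it (1.76 ± 0.12, adjusted p = 1.84e-06; R47H minus WT -0.19, adjusted p = 0.141). Pcp4l1 lay at 92.05 ± 7.33 FPKQ in R47H and 19.97 ± 2.79 in KO (SD, n = 5 each) against 145 ± 15.5 in wild type (n = 10), so here R47H stayed below wild type.

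Further genes of this kind were Rgs1, which shortens signals of chemokine receptors (1.87; R47H minus WT -0.22), Plau, the urokinase plasminogen activator (1.68; -0.22), Npy, neuropeptide Y (1.64; -0.17), and Etv5, an ETS transcription factor downstream of growth-factor signals (1.60; -0.29). Slco4a1, an organic anion transporter, and Folr2, a folate receptor of resident-type macrophages, were higher by 1.95 and 1.79 but stayed below wild type by 0.70 and 0.71 on the log2 scale. Ccl4, a chemokine that attracts T cells and monocytes, held 81.5, 78.9, 84.1, 61.4 and 59.7 FPKQ in R47H and 22.3, 25.6, 20.4, 22.8 and 22.96 in KO, against 34.7 to 81.3 (median 55.1) in wild type. All KO libraries lay below all R47H libraries and all wild types (1.63 ± 0.10, adjusted p = 1.26e-06). All the genes of these 2 paragraphs were also called set-subtracted, by 1.11 (Plau) to 1.94 (Pcp4l1) beside Trem2 at 4.79. They were picked for a wild-type-set difference that was small beside their R47H minus KO difference. Their set-subtracted direction and much of its size were therefore built into the choice.

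In the other direction stood genes that were high in KO. Thbs1, thrombospondin 1, a matrix glycoprotein that binds Cd36 and Cd47, held 25.3, 36.6, 12.2, 24.3 and 26.3 FPKQ in R47H and 122, 144, 138, 123 and 121 in KO, against 5.05 to 10.3 (median 8.03) in wild type. KO exceeded every R47H library and R47H exceeded every wild type, with R47H Rep3 closest to wild type (-2.40 ± 0.21, adjusted p = 1.26e-05; set-subtracted -1.89, adjusted p = 3.05e-05). Clec4n, the C-type lectin dectin-2, which recognises fungal mannans, held 31.8, 44.1, 35.7, 28.1 and 40.8 FPKQ in R47H and 110.2, 117, 128, 127 and 134 in KO, against 8.07 to 14.8 (median 10.04) in wild type. R47H again lay between the other groups without overlap (-1.76 ± 0.11; R47H minus WT 1.66, KO minus WT 3.42). Fcgr2b, the inhibitory Fc gamma receptor, held 72.5, 66.3, 57.3, 69.4 and 78.6 FPKQ in R47H and 186, 199, 197, 190.1 and 192 in KO, against 30.7 to 44.5 (median 38.1) in wild type. R47H lay between the other groups here too, again without overlap (-1.48 ± 0.076, adjusted p = 5.67e-07).

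The same order, KO highest, R47H between and wild type lowest in group means, held for F13a1, the crosslinking coagulation factor XIII (-2.10), Mmp14, a membrane-bound matrix protease (-1.88), Cmklr1, the chemerin receptor (-1.71), Vcam1 (-1.62), Cd4 (-1.42), Ms4a4a (-1.42), Tbc1d4, a regulator of glucose transporter traffic (-1.41), and Itgal, the LFA-1 integrin chain (-1.40). R47H minus WT in these 8 genes ran from 0.49 (Tbc1d4) to 1.41 (Ms4a4a), each with an adjusted p under 0.05. F13a1 and Ms4a4a moved most when the wild-type sets were subtracted, to -1.30 and -0.73, and all 8 stayed called. These 8 were picked by the same limit on the wild-type-set difference, so their set-subtracted direction was built in too.

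A smaller group was high in KO with R47H among the wild types. It was picked for KO clear of R47H and of wild type. The KO minus WT difference also had to be at least 4 times the R47H minus WT difference. Ednrb, the endothelin B receptor, held 3.51, 3.49, 3.85, 5.53 and 3.53 FPKQ in R47H and 16.1, 14.1, 21.7, 18.1 and 16 in KO, against 1.59 to 6.42 (median 3.33) in wild type. Only KO stood apart (-1.87 ± 0.13; R47H minus WT 0.18, adjusted p = 0.541). Cd33, a sialic-acid receptor that inhibits myeloid cells and whose human gene is another Alzheimer's risk locus, held 11.4, 11.9, 12.7, 16.4 and 14.1 FPKQ in R47H and 31.1, 34.3, 30.2, 26.4 and 31.8 in KO, against 11.2 to 22.4 (median 14.1) in wild type. All R47H libraries lay within the wild-type range and all KO libraries above it (-1.16 ± 0.097, adjusted p = 9.12e-06; set-subtracted -0.82, adjusted p = 0.00243). Ncapg2, a condensin II subunit (-1.34), Slc16a6, a monocarboxylate transporter (-1.23), Tns1, a focal-adhesion protein (-1.18), and Padi4, which turns arginine in histones into citrulline (-1.13), had R47H minus WT differences of 0.06, 0.22, 0.21 and 0.15.

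**Figure D2:**
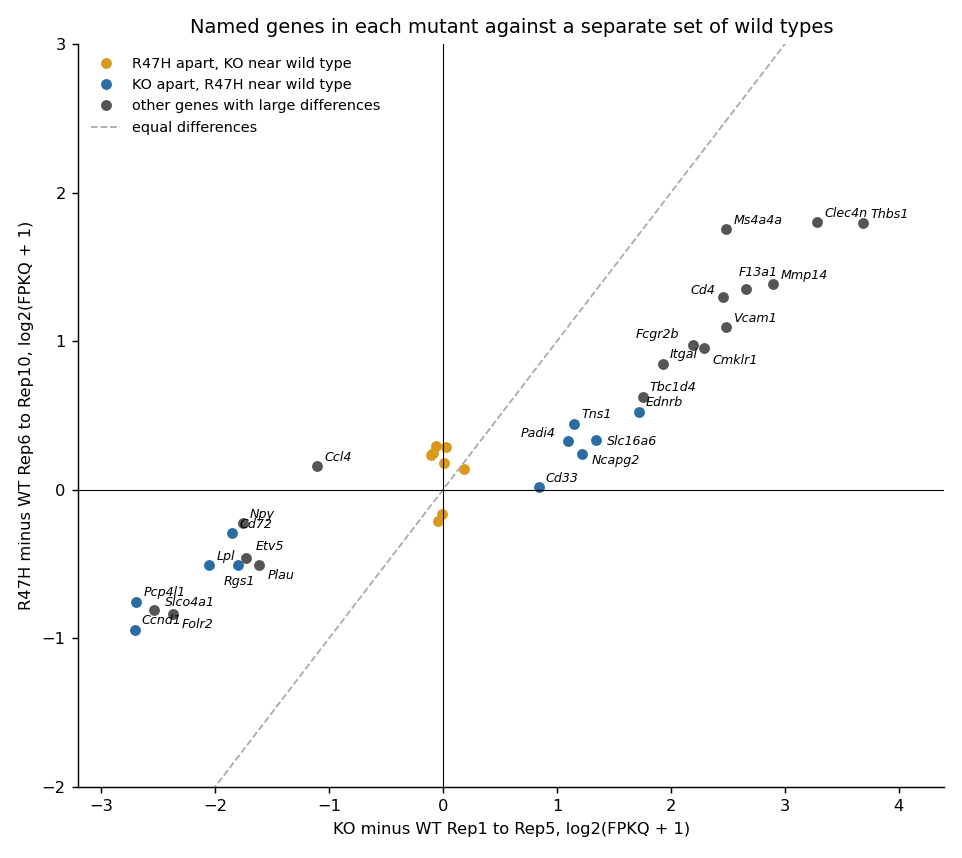
Named genes other than Trem2, with the KO minus WT Rep1 to Rep5 difference on the horizontal axis and the R47H minus WT Rep6 to Rep10 difference on the vertical axis, both on the log2(FPKQ + 1) scale and with no library in common. Except for Ccl4 and Cd33, whose R47H difference is near 0, the genes with large KO differences have a smaller R47H difference of the same sign. The genes in orange lie near 0 on the horizontal axis. The genes were chosen by their R47H minus KO differences, and some by being near wild type in 1 mutant. The smaller size in R47H and the place of the orange genes are therefore partly built into the choice.

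Among lists with at least 8 tested members, that of G2 and M phase had the largest median difference. Over all tested genes 17.7% were higher and 14.4% lower, which is the background for each list below. Set-subtracted the background was 7.96% and 6.16%, and exchanged 40.2% were called in either direction. Of 27 tested genes of G2 and mitosis, 26 were higher in R47H and Cenpa was lower (background 17.7% higher, 14.4% lower), with a median of 0.93 against 0.02 for all genes. The median KO minus WT difference was -2.02 and the median R47H minus WT difference -1.06, and the wild-type sets differed by 0.04; set-subtracted, 24 stayed called higher with a median of 0.94. Of 28 S-phase genes 27 were higher, with a median of 0.56 (KO minus WT -1.18, R47H minus WT -0.65) and 23 called set-subtracted. Ccna2, cyclin A2, held 8.16, 4.61, 7.82, 6.15 and 6.64 FPKQ in R47H and 1.74, 1.64, 1.60, 1.999 and 1.75 in KO, against 14.4 to 19.8 (median 18.3) in wild type. Each group stood clear of the next (1.46 ± 0.12, adjusted p = 8.68e-06; set-subtracted 1.46). Tk1, thymidine kinase, which supplies dTTP for replication, held 10.47, 8.28, 10.4, 7.26 and 6.42 FPKQ in R47H and 2.08, 2.31, 1.95, 2.20 and 2.21 in KO, against 15.8 to 23.4 (median 20.5) in wild type. The 3 groups were again in separate ranges (1.58 ± 0.12, adjusted p = 3.92e-06).

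Other members followed the same order of group means: Top2a, which untangles chromosomes (1.43), the mitotic kinesin Kif11 (1.28), Cdca8 of the chromosomal passenger complex (0.92), the ribonucleotide reductase subunit Rrm2 (1.52), the helicase subunit Mcm5 (1.10) and Uhrf1, which copies DNA methylation (1.40). Cenpa, the centromeric histone, ran the other way with 20.5 FPKQ in R47H, 37.2 in KO and 24.3 in wild type (-0.85, adjusted p = 0.000325). Among the R47H libraries Rep2 had the lowest G2 and M phase median, -1.43 from the wild-type mean, against -1.03 to -0.71 in the others and -2.10 to -1.91 in the KO libraries. Leaving out any 1 library left 24 to 26 G2 and M phase and 24 to 28 S-phase genes higher. In bulk RNA, fewer dividing cells and less of these RNAs per cell cannot be told apart.

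Upstream of these, 11 of 19 tested regulators of G1 were higher and 2, Rb1 and Cdkn1b, lower. Besides Ccnd1 they included Myc, 9.91, 7.60, 11.1, 11.4 and 9.71 FPKQ in R47H and 2.95, 2.40, 3.24, 3.30 and 3.58 in KO against 9.08 to 24.3 (median 14.1) in wild type. The KO libraries lay below every other library, but the wild-type sets also differed by 0.95, and the difference of 1.41 became 0.47 set-subtracted (adjusted p = 0.0417, and 0.068 with a sex covariate) and 2.36 exchanged. Cdk6, a partner of cyclin D, and E2f1, the transcription factor released by Rb1, were higher by 0.55 and 0.54, and Ccne2 and Foxm1 by 0.95 and 0.71. Set-subtracted, 8 of the 19 regulators were called higher and 0 lower, so neither Rb1 nor Cdkn1b kept its call. Exchanged, 10 were higher and 2 lower. Leaving out any 1 library left 9 to 11 higher and 1 to 2 lower.

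Promoters of G2 and M phase genes often hold the cell-cycle homology region (CHR), TTTGAA, which binds MuvB complexes, and the CCAAT box, which binds NF-Y. The 250 bases before the start (RefSeq, GRCm38.p6) were searched on both strands and for each motif separately, so matches can overlap. A gene was counted if any of its listed promoters held the motif. TTTGAA was present in 9 of the 23 tested G2 and M phase genes with a listed promoter (39.1%), against 18.3% of 27025 genes. CCAAT was present in 19 of the 23 (82.6%), against 37.5%. For the 24 S-phase genes with a listed promoter the shares were 12.5% and 58.3%. The E2F motif TTTNGCGC was present in 20.8% of those, in 4.35% of the G2 and M phase genes and in 1.31% of all genes. The 2 G2 and M phase promoters below are those of the genes with the largest differences among the holders of TTTGAA, with that motif, read on either strand, in capitals. Ube2c (chromosome 2, 164769679 to 164769928, plus strand), an enzyme that marks cyclins for destruction, held 9.52 FPKQ in R47H and 2.53 in KO (1.60); its motif begins 29 bases before the start. Ccnb2 (chromosome 9, 70421555 to 70421804, minus strand), cyclin B2, held 7.98 and 2.26 (1.46); its motif begins 167 bases before the start. A match describes these letters only.
Ube2c: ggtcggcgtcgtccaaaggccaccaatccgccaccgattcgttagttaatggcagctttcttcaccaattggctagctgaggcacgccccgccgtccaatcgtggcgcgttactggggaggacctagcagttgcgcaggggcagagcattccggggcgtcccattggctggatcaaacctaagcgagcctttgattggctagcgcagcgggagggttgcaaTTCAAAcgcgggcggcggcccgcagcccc
Ccnb2: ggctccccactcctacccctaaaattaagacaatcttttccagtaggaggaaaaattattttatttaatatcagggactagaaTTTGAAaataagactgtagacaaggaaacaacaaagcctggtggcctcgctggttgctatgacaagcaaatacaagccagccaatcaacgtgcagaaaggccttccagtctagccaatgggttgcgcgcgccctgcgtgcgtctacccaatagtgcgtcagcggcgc

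**Figure D3:**
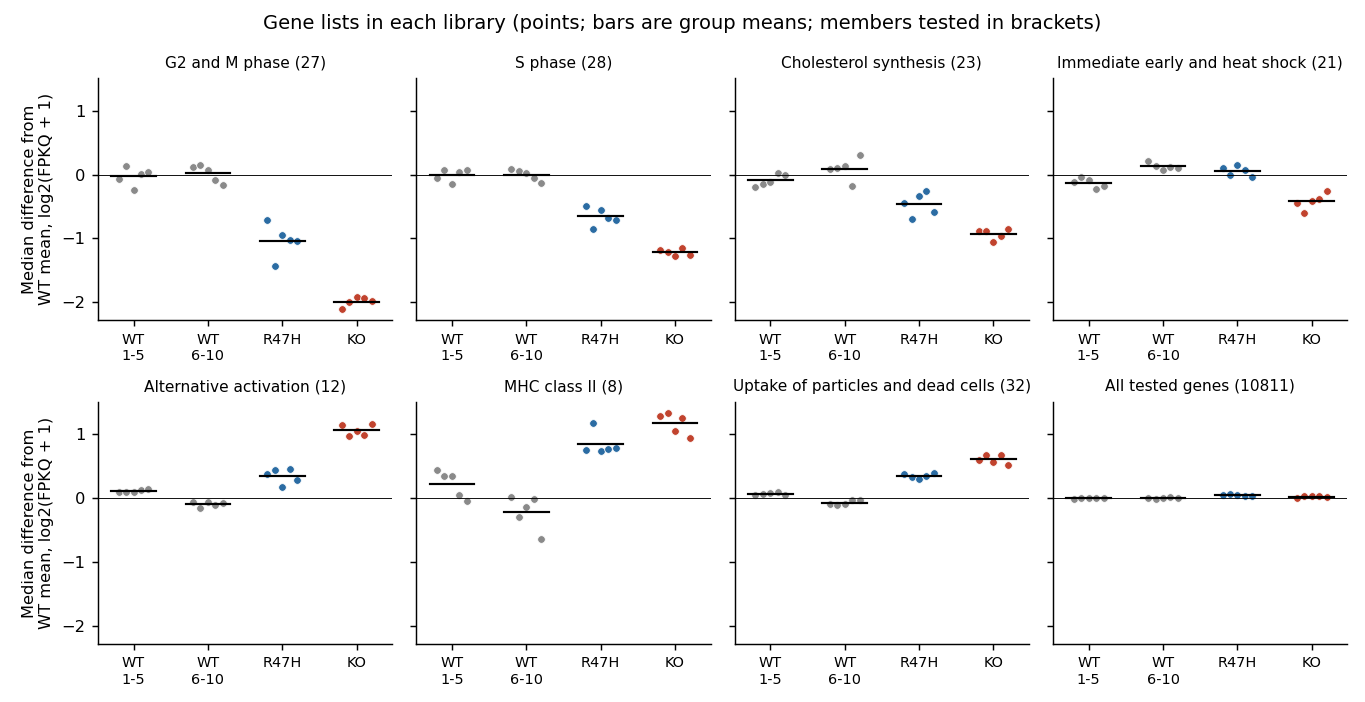
Median over the tested members of a gene list of each library's difference from the wild-type mean, on the log2(FPKQ + 1) scale, with the first 5 and last 5 wild types, R47H and KO as separate columns of 5 points and their mean as a bar. R47H lies between wild type and KO for G2 and M phase, S phase, cholesterol synthesis, alternative activation and uptake, beside wild type for immediate early genes, and overlaps KO for MHC class II, where the wild-type sets also differ.

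Genes of cholesterol synthesis, driven by Srebf2 when cell sterols are low, were higher in R47H in 18 of 23 cases and lower in none (median 0.42). Fdps, which makes farnesyl pyrophosphate, held 76.05, 69.1, 90.5, 78.6 and 60.3 FPKQ in R47H and 34.7, 34.9, 28.01, 38.1 and 32.01 in KO, against 76.3 to 153 (median 99.1) in wild type. R47H and KO did not overlap, and 2 R47H libraries lay within the wild-type range and 3 below it (1.13 ± 0.11, adjusted p = 2.09e-05; set-subtracted 0.73, adjusted p = 0.00994). Idi1, Cyp51 and Msmo1, which act before and after squalene, were higher by 0.97, 1.05 and 0.72. The median KO minus WT difference was -0.91 and the median R47H minus WT difference -0.46. Set-subtracted, 9 of 23 were called (median 0.34), exchanged 16 (median 0.57), and 15 to 19 with any 1 library left out. In fatty acid synthesis 7 of 14 were higher, led by the desaturases Fads2 (1.15), Scd2 (0.97) and Scd1 (0.87). For these desaturases R47H Rep2 lay near the KO libraries, and only Scd2 was called set-subtracted, against 9 of the 14 list members exchanged; the 7 became 4 without any 1 of 6 of the libraries (KO Rep2, Rep3 or Rep4, R47H Rep1, Rep3 or Rep4).

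Genes of lipid uptake, storage and export split, 6 higher and 8 lower of 30, beside 17.7% and 14.4% of all tested genes. Beside Lpl, the higher ones included Pparg, the fatty acid sensor (0.66), Plin2, which coats lipid droplets (0.63), and the scavenger receptor Cd36 (0.54). Rxra, the partner of lipid-sensing nuclear receptors, held 18.2, 18.9, 17.4, 19.7 and 19.1 FPKQ in R47H and 42.7, 33.6, 37.98, 37.1 and 40.01 in KO, against 9.72 to 15.4 (median 12.6) in wild type. R47H lay just above wild type and KO well above both (-0.99 ± 0.067, adjusted p = 1.79e-06; set-subtracted -1.06). The LXR targets Abca1, which exports cholesterol (-0.97), Mylip, a ubiquitin ligase (-0.73), and Apoe (-0.78) were lower in R47H than in KO. None of these 3 was called set-subtracted (-0.31, -0.20 and -0.40), and all were exchanged (-1.64, -1.26 and -1.17).

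Genes that were high in KO and less so in R47H were found among the lists for alternative activation, uptake, adhesion, and iron and redox. Of 12 alternative activation genes 8 were lower and 2, Folr2 and Igf1, higher (median -0.68; KO minus WT 1.08, R47H minus WT 0.37), and 6 stayed lower set-subtracted. Il4ra, the interleukin 4 receptor, held 18.6, 20.2, 15.6, 19.4 and 18.3 FPKQ in R47H and 37.1, 34.3, 35.1, 33.8 and 35.2 in KO, against 10.9 to 18.1 (median 13.7) in wild type. 4 R47H libraries lay just above the highest wild type and Rep3 within the wild-type range (-0.90 ± 0.068, adjusted p = 3.98e-06; set-subtracted -0.39). The mannose receptor Mrc1 (-0.64), the lectin Mgl2 (-1.05) and transglutaminase 2, Tgm2 (-0.99), went with it. Of 32 genes for uptake of particles and dead cells 13 were lower and 6 higher: Mertk, the receptor that engulfs apoptotic cells, held 26.4, 26.3, 21.4, 26.2 and 27.9 FPKQ in R47H and 48.3, 49.7, 57.3, 51.5 and 54.6 in KO, against 10.1 to 18.5 (median 14.3) in wild type. The 3 groups did not overlap (-1.002 ± 0.076; set-subtracted -0.48, adjusted p = 0.00831). Stab1, a scavenger receptor for altered lipoproteins, was also lower (-0.72), while Cd5l (0.83) and the high-affinity Fc receptor Fcgr1 (0.47) were higher. The median of this list went from -0.21 to -0.02 set-subtracted, with 9 lower and 4 higher still called, and to -0.28 exchanged, with 15 lower and 5 higher. In R47H against KO, 14.4% of all tested genes were lower and 17.7% higher.

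Adhesion and matrix genes were lower in 10 of 22, and 12 were lower set-subtracted; the single higher gene was Spp1, osteopontin, with 5290.3, 2996, 4951, 4354 and 3939.9 FPKQ in R47H and 2164, 2022, 2045, 2193 and 2225 in KO, against 4736 to 7931 (median 6068) in wild type. R47H Rep2 was the R47H library nearest to KO (0.99 ± 0.13, adjusted p = 0.000244; set-subtracted 0.53). Among antioxidant and iron genes 8 of 19 were lower and 2 higher. The iron exporter Slc40a1 held 68.5, 99.5, 75.7, 71.3 and 91.1 FPKQ in R47H and 160.1, 172, 242, 174 and 201 in KO, against 21.2 to 46 (median 38) in wild type, again 3 separate ranges (-1.21 ± 0.13; set-subtracted -0.72, adjusted p = 0.0301). The transferrin receptor Tfrc (-1.09), glutathione reductase Gsr (-0.67), the metal transporter Slc11a1 (-0.49) and Gclm, for glutathione synthesis (-0.51), were lower as well. Set-subtracted, 7 members were called lower, 6 of them among these 8.

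Lysosomal genes differed little between the mutants: 9 of 30 were lower in R47H and 2 higher, with a median of -0.08. Set-subtracted, 5 were lower and 1 higher, exchanged 10 and 6, and without R47H Rep4 the 2 higher became 5. The lysosomal integral membrane protein Scarb2 (-0.51) and the protease Tpp1 (-0.37) were lower. Both mutants lay above wild type by medians of 0.30 (KO) and 0.23 (R47H). Macrophage identity genes were lower in 10 of 25 and higher in 3 (median -0.09), among them Ms4a4a as above, Ms4a6c (-0.63) and Ms4a6d (-0.53), paralogs that can share reads. Set-subtracted, 4 identity genes were lower and 3 higher, and exchanged 11 and 3. Summed over the list, levels ran from 31870 to 34550 FPKQ in R47H and from 37830 to 40820 in KO. In wild type the sum ran from 27170 to 30610, so the 3 groups did not overlap. Such a sum is weighted towards the most abundant members. The growth-factor receptor Csf1r differed by -0.27 (set-subtracted -0.19).

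For MHC class II, which presents peptides to CD4 T cells, the difference depended on which wild types were subtracted. Of 8 tested genes 5 were lower in R47H (median -0.46), but in none were the 5 R47H values clear of the 5 KO values, against 22.9% of all tested genes (11.9% higher and 10.9% lower). H2-Aa held 363, 426, 250.2, 256 and 305 FPKQ in R47H and 479, 493, 387, 493 and 383 in KO, against 73.4 to 206 (median 147) in wild type, so both mutants were above wild type and overlapped each other (-0.50 ± 0.15, adjusted p = 0.0223). The wild-type sets differed in the same direction (list median -0.42), and set-subtracted no member was called, with 0.04 for H2-Aa, 0.02 for the invariant chain Cd74 and a list median of 0.01. Exchanged, all 8 were called lower with a median of -0.86 (-1.05 for H2-Aa and -0.87 for Cd74). The 5 lower genes became 1 without KO Rep2 or without R47H Rep3, and 2 without KO Rep1 or KO Rep4. Among MHC class I genes 3 of 15 were higher, beside 17.7% of all tested genes, and the near-identical H2 genes can share reads.

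Of 19 inflammatory genes 9 were higher in R47H and 3 lower. Tnf held 24.6, 15.4, 18.4, 14.8 and 17.1 FPKQ in R47H and 7.44, 5.86, 6.49, 6.94 and 6.11 in KO, against 14.2 to 19.6 (median 16.8) in wild type. 4 R47H libraries lay among the wild types, Rep1 above them, and all KO libraries below them (1.32 ± 0.12, adjusted p = 1.66e-05; set-subtracted 1.23, adjusted p = 1.42e-05). Cd14, the co-receptor for bacterial lipopolysaccharide, had 581 ± 40.5 FPKQ in R47H, 301 ± 20.6 in KO and 731 ± 118 in wild type (0.95; set-subtracted 0.59). Il1b, Nlrp3 and Socs3 were lower (-0.56, -0.37 and -0.42). The list median of 0.25 became -0.05 set-subtracted and 0.23 exchanged. Set-subtracted, 5 of the 19 were called higher and 2 lower, and exchanged 9 higher and 1 lower. Cxcl2 went from 0.85 to -0.11 set-subtracted and 1.80 exchanged, with wild-type sets 0.95 apart. Chemokines and their receptors split 9 to 5 of 25: Ccl2 (1.16), Ccl3 (0.89), Cx3cr1 (0.78) and the complement receptor C5ar1 (0.58) were higher with Ccl4, and Ccl8 (-1.07), Ppbp (-0.99), Ccrl2 (-0.49) and Ccl6 (-0.45) were lower with Cmklr1. Near-identical chemokine copies may share fragments.

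Interferon-stimulated genes were uneven within groups. Of 29 members 7 were called higher and 2 lower (median 0.26). Set-subtracted, 7 were higher and 0 lower (median 0.53), and exchanged 2 higher and 3 lower (median -0.05). In list median against the wild-type mean, KO Rep3 (-0.90), KO Rep5 (-0.33) and R47H Rep3 (-0.59) stood low, and R47H Rep4 (0.46) and Rep5 (0.56) stood high. Ifi27l2a, an interferon-induced mitochondrial protein, held 322, 345, 232, 345 and 349 FPKQ in R47H and 189, 181, 85.6, 189 and 93.9 in KO, against 275 to 438 (median 389.8) in wild type. Among the called members, it alone had groups that did not overlap (1.17 ± 0.23, adjusted p = 0.00303; set-subtracted 1.35). The 7 became 3 without KO Rep2, Rep3 or Rep5 or R47H Rep1, Rep4 or Rep5, and 4 without R47H Rep2; without KO Rep3 the list median fell from 0.26 to 0.10.

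Immediate early and heat-shock genes, which respond to stimuli within minutes, were higher in 13 of 21 and lower in 1, Ier3. Fos held 73.2, 59.6, 46.9, 63.9 and 61.8 FPKQ in R47H and 16.3, 14.7, 16.9, 18.5 and 20.7 in KO, against 42.3 to 104 (median 61.5) in wild type, where the sets differed by 0.92. KO lay below all other libraries (1.75 ± 0.11, adjusted p = 1.43e-06; set-subtracted 0.83, adjusted p = 0.000778). Atf3 (0.94) and Zfp36, which degrades Tnf mRNA (0.73), stayed called at 0.60 and 0.57. Dusp1 went from 1.03 to -0.33 set-subtracted and 2.38 exchanged. Of the list, 5 genes were called higher set-subtracted and 13 exchanged. Genes of survival and death were higher in 7 of 22 and lower in 1. Bcl2l1, the anti-apoptotic BCL-XL, held 71.5, 65.4, 80.8, 65.4 and 56.2 FPKQ in R47H and 29.3, 30.9, 31.3, 31.98 and 33.8 in KO, against 60.04 to 80.2 (median 69.02) in wild type. R47H overlapped the wild types and KO lay at less than their lowest value throughout (1.08 ± 0.085, adjusted p = 5.72e-06; set-subtracted 0.77, adjusted p = 1.52e-05).

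In energy metabolism, 13 of 26 glycolysis and hypoxia genes were higher in R47H and 3 lower (median 0.20), of which 8 were higher without KO Rep1 or KO Rep2. Set-subtracted, 2 members were higher and 4 lower (median 0.10), and exchanged 18 and 3 (median 0.33). Ldha, which makes lactate (0.51; 0.32 set-subtracted), Tpi1 (0.51; 0.25) and Pkm (0.50; 0.32) were among the higher ones. Of these, Tpi1 was not called set-subtracted (adjusted p = 0.0605), but it was called exchanged. Hif1a, the hypoxia factor, held 32.9, 26.3, 24.9, 31.95 and 32.6 FPKQ in R47H and 50.9, 48.3, 53.4, 46.1 and 50.2 in KO, against 27.1 to 31.05 (median 28.3) in wild type. R47H surrounded the wild-type range and KO lay above it (-0.73 ± 0.084; set-subtracted -0.72, adjusted p = 3.52e-05). Pfkfb3, a glycolytic regulator, was also lower (-0.68). Oxidative phosphorylation (3 of 28 higher) and cytosolic ribosome genes (1 of 28, Rps24) were below the background share of 17.7%, and both counts turned on single libraries. Oxidative phosphorylation had 6 higher without R47H Rep4, 5 without R47H Rep5 and 1 without KO Rep1 or R47H Rep1, Rep2 or Rep3. The ribosome list (median 0.23) had 9 higher without R47H Rep4 and 6 without R47H Rep5. In the amino acid response list, 7 of 26 were higher, among them the serine-pathway genes Phgdh (0.78) and Mthfd2 (0.64), and 5 lower. The 5 lower became 2 without KO Rep1, 3 without KO Rep2, KO Rep4, KO Rep5, R47H Rep1 or R47H Rep3, and 4 without any other library. Set-subtracted, 2 were higher and 4 lower and Phgdh was not called (0.69, adjusted p = 0.0753); exchanged, 8 were higher and 5 lower.

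Below the receptor, 8 of 27 tested genes of Trem2 signalling were higher and 6 lower, with a median of 0.00. Of all tested genes 17.7% were higher and 14.4% lower. The adaptor Tyrobp held 1486 ± 160.1 FPKQ in R47H and 1335 ± 119.5 in KO (SD, n = 5 each; 0.15, adjusted p = 0.226). Syk was lower in R47H (-0.28), as were Lcp2, the SLP-76 scaffold (-0.56), and the lipid phosphatase Inpp5d, or SHIP1 (-0.32); the tyrosine phosphatase Ptpn6, or SHP-1 (0.58), and the adaptor Lat2 (0.62) were higher. Plcg2 differed by 0.00 ± 0.06. Syk, Lcp2 and Ptpn6 were also called set-subtracted (-0.31, -0.59 and 0.41), and Inpp5d was not (-0.14; -0.49 exchanged). Of the Trem2 cleaving enzymes, Adam10 was lower (-0.30) and Adam17 not called (-0.10). Of 12 tested genes beside Trem2 on chromosome 17, 3 were higher, Med20, Bysl and Ccnd3, and 2 lower, Usp49 and Treml2, and none was called set-subtracted, against 3 higher and 2 lower exchanged; Ccnd3 also lost its call without any 1 of 6 of the libraries. Beta-catenin pathway genes split 4 to 5 of 14, with the Wnt co-receptor Lrp6 lower (-0.85) and the catenin gene Ctnnb1 lower by 0.31 on the log2 scale.

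Genes known from disease-associated microglia, the Trem2-dependent state around plaques, also split: 8 of 27 were higher and 7 lower. Of all tested genes 17.7% were higher and 14.4% lower. Lpl, Spp1, Cd9 (0.57), Lgals3 (0.62) and the homeostatic marker Cx3cr1 were higher in R47H. Apoe, Ccl6, Clec7a (-0.41) and another homeostatic marker, P2ry12, were lower. P2ry12 held 1.87, 1.503, 0.975, 2.09 and 2.03 FPKQ in R47H and 5.77, 5.56, 4.55, 5.63 and 5.15 in KO, against 1.17 to 2.50 (median 1.76) in wild type, so its level was low in all groups and raised in KO only (-1.25 ± 0.12, adjusted p = 2.66e-05). Of the osteoclast genes 3 of 12 were higher, among them the RANK receptor Tnfrsf11a (0.39), and 2 lower, among them Acp5 (-0.71), beside the same background shares. Some genes of other cells moved with the comparison. Igkc was lower (2.12 FPKQ in R47H and 6.35 in KO), as were Csf3r (-0.36) and Mmp8 (-0.95) of the neutrophil list, in which Ngp was higher (0.37) but lost its call without any 1 of 8 libraries. Set-subtracted, Igkc (-0.90, adjusted p = 0.0745) and Csf3r (-0.07, adjusted p = 0.647) were not called, and exchanged both were (-1.53 and -0.65). Below the minimum level, Jchain of plasma cells had a mean of 0.233 FPKQ in R47H and 1.42 in KO, the stromal gene Dcn 0.183 and 0.719, and the megakaryocyte gene Itga2b 0.275 and 0.968. With no filter on level, 1417 of 21147 genes were called lower in R47H. Among them were 3 of 12 stromal, 2 of 8 B cell and 1 of 8 erythroid and megakaryocyte genes, with 0 higher in these lists. The part of the genes of other cells in the other results was not tested.

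The reverse pattern, R47H apart and KO near wild type, was rare. Among 1616 named genes that were called, did not overlap between R47H and KO and had a mean of at least 10 FPKQ in the higher of the mutants, 594 had a KO minus WT difference at least 4 times the R47H minus WT difference with KO clear of wild type, and 18 had an R47H minus WT difference at least 2 times that of KO with R47H clear of wild type. Of the 18, 16 were higher in R47H. Mcl1, an anti-apoptotic protein of short life, held 475, 489, 465, 424 and 463 FPKQ in R47H and 357, 376, 366, 394 and 368 in KO, against 355 to 389.6 (median 373) in wild type. R47H lay above all other libraries, as the choice of the 18 required, though by a small step (0.31 ± 0.057, adjusted p = 0.00173; KO minus WT 0.00; set-subtracted 0.26, adjusted p = 0.00759). Sbds, for ribosome maturation, held 56.1, 58.1, 54.7, 49.1 and 49.96 FPKQ in R47H and 39.3, 43.7, 43.9, 44.8 and 42.2 in KO, against 42.3 to 48.3 (median 46.03) in wild type (0.32; set-subtracted 0.34, adjusted p = 0.00312). Rrp36, for ribosomal RNA processing (0.36; 0.34), and Rgl2, a Ral exchange factor (0.48; 0.36), were also called both ways, although Rrp36 was not with a sex covariate added (adjusted p = 0.0506).

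Hspa5, the chaperone BiP of the endoplasmic reticulum, led this pattern but not set-subtracted. It held 557, 563, 578, 556 and 552 FPKQ in R47H and 405, 404, 388, 395 and 393 in KO, and 349 in WT Rep1 to Rep5 against 510.1 in WT Rep6 to Rep10. The R47H minus KO difference of 0.50 ± 0.048 (adjusted p = 2.48e-05) was matched by a wild-type difference of 0.55 and became -0.05 set-subtracted (adjusted p = 0.63) and 1.04 exchanged (adjusted p = 3.94e-10). Syvn1, an enzyme of protein disposal from the same compartment, went from 0.42 to 0.17, and the 2 lower genes, Uri1 and Mettl9, from -0.37 and -0.29 to -0.17 and -0.16. None of these 4 was called set-subtracted, and all 4 were exchanged.

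**Figure D4:**
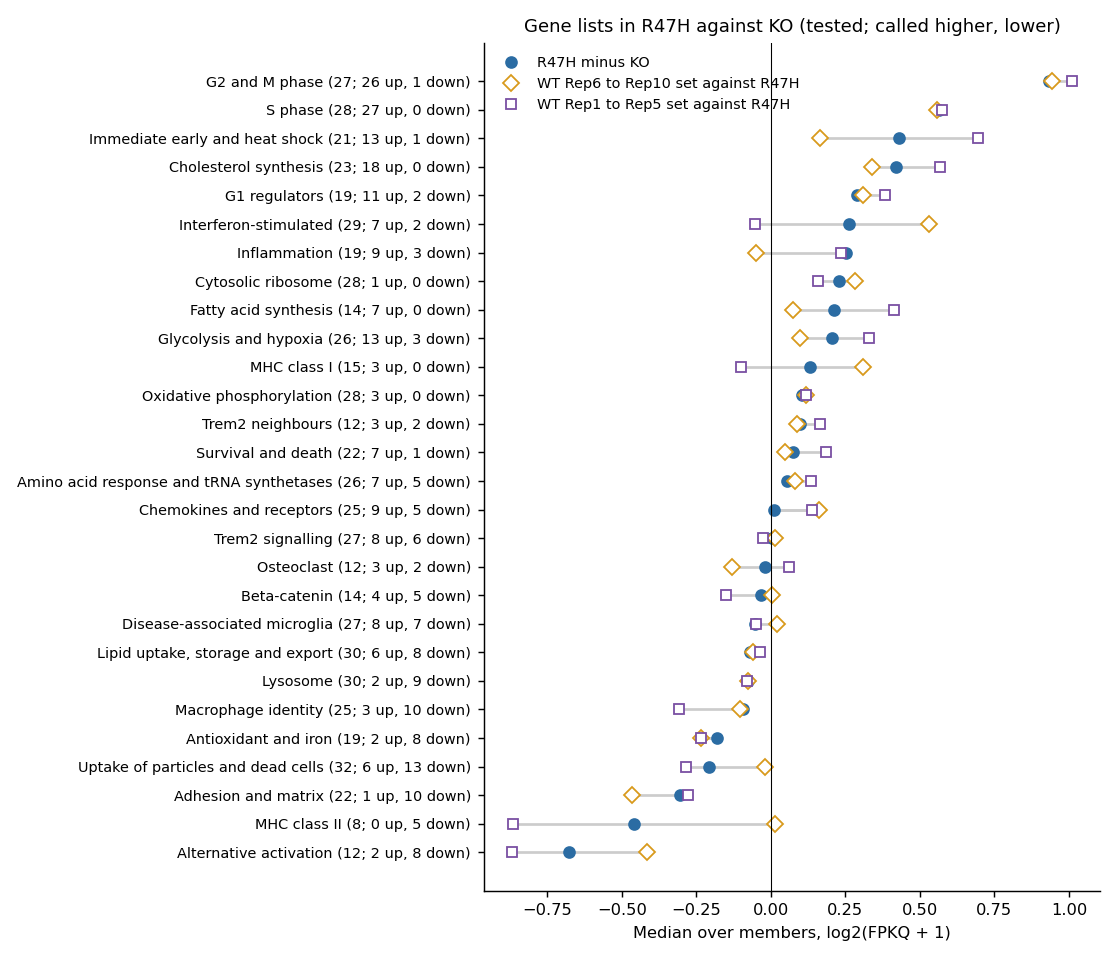
Median R47H minus KO difference over the tested members of each gene list with at least 8 of them (filled circles) and the same set-subtracted (open diamonds) and exchanged (open squares), on the log2(FPKQ + 1) scale, with the numbers tested and called higher or lower in brackets. G2 and M phase lies at 0.93, 0.94 and 1.01 and S phase at 0.56, 0.56 and 0.57, while MHC class II goes from -0.46 to 0.01 set-subtracted and -0.86 exchanged, inflammation from 0.25 to -0.05 and 0.23, and immediate early genes from 0.43 to 0.16 and 0.70.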

How the data were processed

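Values are the deposited FPKQ column, an FPKM-type normalised level per gene for each library. RSEM and GRCm38 are named in the submitters' processing notes, and their versions and the scaling behind FPKQ were not stated in the sources used here. RSEM shares reads between similar genes, so levels of paralogs (H2, Ccl3 and Ccl4, Clec4, Fcgr and Ms4a genes) are less certain.

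Differences were fitted with limma 3.58.1 (R 4.3.3; moderated variance with a trend) on log2(FPKQ + 1) in the 5 R47H and 5 KO libraries, two-sided, for the 10811 genes whose mean reached 1 FPKQ. Calls are at a Benjamini-Hochberg adjusted p of 0.05 over these genes, and every adjusted p in the text is from limma. The smallest whole-read steps gave the depth: 85.0% to 88.4% of low values were whole within 0.1 fragment, which did not reach nearly all, so no count test was run. On simulated data of the same size (10811 genes, 200 of them changed), 37.3% of genes changed 1.25-fold were recovered, 68.7% at 1.5-fold and 100% at 2-fold, with 7 false calls. The simulation gave both groups the same variance for each gene. It also changed far fewer genes than the 3472 called in the data, so these figures need not hold there. Wild-type contrasts and the set-subtracted contrast used all 20 libraries.

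The comparison and the gene lists (36, of which 34 had a tested member) were chosen with earlier results of these data known. Lists are described by counts and medians. Named genes were called, did not overlap and had a mean of at least 10 FPKQ in the higher group: the 12 largest in each direction with a wild-type-set difference under 50% of theirs, and the 6 largest with R47H or KO near wild type. Up to 4 called members of each list by adjusted p were added without the other limits, with other list members named by value. The motif search among cholesterol genes is void, since 16 of 23 had a listed promoter. Alternatives varied scaling, pseudocount, filter, variance model, covariates, replicate block and single libraries. Figures were drawn with matplotlib 3.10.9. Some list members are not reported here.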

Additional observations from a re-analysis of the deposited data

Results flagged for a closer look

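In 2 of 74 groups tested (37 genes in R47H and in KO), 1 library stood far from the other 4, where chance gives about 1 in 20. Npy was lowest in R47H Rep4, at 53.3 FPKQ with the nearest library at 84.2, a gap of 0.79 of the range. Ednrb was highest in R47H Rep4, at 5.53 FPKQ with the nearest library at 3.85, a gap of 0.825 of the range. Both values lay on the same side of every KO library as the other R47H libraries.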

How the results depend on the processing

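With the wild-type sets subtracted 1527 genes were called, 861 higher and 666 lower, and with a sex covariate, chosen after seeing the data, 1333, 752 and 581. Of 128 named results, 92 kept direction and call, 31 lost the call and 5 reversed. With the sex covariate these counts were 84, 39 and 5. Some of the named genes were picked for a small wild-type-set difference, so part of this agreement was built in. Reversed values, without and with the covariate, were -0.049 and -0.046 for Hspa5, 0.0034 and 0.0515 for H2-Eb1, 0.045 and 0.0622 for H2-Aa, 0.0215 and 0.009 for Cd74, and -0.1063 and -0.0915 for Cxcl2; the cause was not tested. With the sets exchanged, a pairing the labels allow equally, 4348 genes were called and 1347 reached 1.5-fold, 6 named results lost the call and none reversed; list medians moved by more than the spread between libraries in 17 of 34 lists, against 13 as paired. Genes past 1.5-fold numbered 468 with a mean of at least 5 FPKQ, which tests fewer genes, and 315 with a pseudocount of 5, which shrinks low genes. Leaving out 1 library gave 2717 to 3659 calls, 1472 to 2035 higher, 1245 to 1624 lower, 664 to 805 past 1.5-fold, and 4.60 to 4.77 for Trem2. No named result reversed under the other settings, and 0 to 9 lost the call.

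With the replicate number as a block, 3004 genes were called, and Ccnd3 and Ndufa9 lost the call. The numbers did not pair the libraries: correlations of same-numbered deviations ran from -0.12 to 0.30, with 1 of 5 above 0.1, and 2 of 10 libraries correlated best with their own number.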
